A study of Mus musculus with 6 samples.

Results

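The FoxO transcription factors Foxo1, Foxo3 and Foxo4, the thioredoxin inhibitor Txnip and the antioxidant enzymes Sod1, Sod2, Cat, Gpx1 and Prdx1 were followed in transplanted mouse haematopoietic stem cells with and without Matn4. These 9 genes, of 21946 gene symbols on the array, were taken by name for their role, by a rule that uses no measured value, although earlier results of these data were known when they were picked. The array carries 16 probes for them among 46237 probes. RNA was read on 6 Illumina bead arrays with a single label, 3 for the wt group and 3 for the group labelled Matn4-/-, whose cells lack the gene for the matrix protein matrilin-4. Marrow of wt donors (CD45.1.2) and of Matn4-/- donors (CD45.2) was mixed 1:1 and given to CD45.1 recipients that had been irradiated with 2 doses of 500 rad. The donor genotypes therefore differed at the CD45 locus as well as at Matn4. Cells of both genotypes were sorted 4 weeks later as LSK CD150+ CD48- cells, with C57/BL6 as the strain, female sex and an age of 12 weeks in the labels. The design text calls the 3 samples of a group biological replicates, but the labels do not say whether they came from separate recipients, so the p-values measure the spread between these arrays.

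FoxO factors bind DNA through a forkhead domain and are kept out of the nucleus when AKT phosphorylates them. In mouse haematopoietic stem cells they are known for holding down reactive oxygen and for keeping the cells quiescent, and Foxo3 is the member best known for this. Txnip binds and inhibits thioredoxin, Sod1 and Sod2 turn superoxide into hydrogen peroxide in the cytosol and in mitochondria, and Cat, Gpx1 and Prdx1 remove hydrogen peroxide. Catalase does so in peroxisomes, Gpx1 at the expense of glutathione and Prdx1 at the expense of thioredoxin.

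The promoters of 8 of the 9 genes were found in the RefSeq table for build GRCm38.p6, and 3 of them are shown because they bear on the results below. Txnip was the 1 gene of the 8 with a FoxO motif in the 250 bases before its annotated start. Prdx1 and Cat are the genes with a probe above the filter on intensity (the brighter 50% of probes) whose wt and Matn4-/- arrays did not overlap. The windows are chr3:96557707-96557956 (plus strand) for Txnip, chr4:116685349-116685598 (plus strand) for Prdx1 and chr2:103485154-103485403 (minus strand) for Cat, each written 5′ to 3′ on the strand of the gene. Capitals mark the motifs searched on both strands, GTAAACA and GTAAATA (FoxO), TGACNNNGC (antioxidant response element), TGACTCA (AP-1) and CCAAT.
Txnip: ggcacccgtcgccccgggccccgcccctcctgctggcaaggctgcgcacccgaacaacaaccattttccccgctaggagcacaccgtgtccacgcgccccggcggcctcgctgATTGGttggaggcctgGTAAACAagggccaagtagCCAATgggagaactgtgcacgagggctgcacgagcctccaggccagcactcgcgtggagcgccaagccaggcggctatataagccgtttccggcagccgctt
Prdx1: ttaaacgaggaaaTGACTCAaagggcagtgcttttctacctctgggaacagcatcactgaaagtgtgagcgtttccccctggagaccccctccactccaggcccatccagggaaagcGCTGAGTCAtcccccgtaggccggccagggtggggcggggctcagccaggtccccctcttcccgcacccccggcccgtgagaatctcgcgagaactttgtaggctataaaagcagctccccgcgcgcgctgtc
Cat: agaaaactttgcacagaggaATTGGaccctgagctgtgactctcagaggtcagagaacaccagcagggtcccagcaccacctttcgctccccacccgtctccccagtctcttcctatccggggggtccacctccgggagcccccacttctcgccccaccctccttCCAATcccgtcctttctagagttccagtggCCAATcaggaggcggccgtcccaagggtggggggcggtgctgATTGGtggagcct

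The Txnip match to GTAAACA lay 121 to 115 bases before the start, between 2 CCAAT boxes. Of 32851 promoter windows of this length, 3.17% held GTAAACA and 2.73% held GTAAATA, which none of the 8 windows did. Prdx1 held 2 AP-1 motifs, and the second of them, 131 to 125 bases before the start, overlapped the match to the antioxidant response element at 133 to 125. AP-1 motifs were in 4.46% of all windows and TGACNNNGC in 10.2%. Sod1 held TGACNNNGC too, 56 to 48 bases before its start. Cat held none of these and 4 CCAAT boxes, a motif of 33.8% of windows. A match describes these letters and is not evidence of binding.

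The intensities were deposited on a linear scale with background still in them, so fold changes understate the change of dim probes. The level that cells without a gene give was read from 15 probes of Y-linked genes, which lay between 93.1 and 142.2 with a median of 108.2. The brightest of them read 125.8 to 142.2 on the 6 arrays, and a probe at or under it on an array is called not above background there. Matn4 itself read 158.2 to 377.6 with both groups spread over that range (log2 difference -0.02, limma adjusted p = 0.999), and with the deleted part unknown here, this probe does not check the labels. Of the markers of the sort gate, Kit (462.5 to 652.7) and Slamf1, which encodes CD150 (141.2 to 177.5), were above background on all 6 arrays and Cd48 on none. Of 16 stem cell markers, 14 were above background on every array. Of 6 markers of short-term stem cells or progenitors, of which the gate as labelled names CD48 alone, 2 were above background on every array and 4 on none. Matn4-/- replicate 3 stood apart, with a mean Spearman correlation with the other arrays of 0.745 against 0.852 to 0.866. Among the dimmer 50% of probes that correlation was 0.147 against 0.472 to 0.487. Among the brighter 50%, which were tested, it was 0.78 for Matn4-/- replicate 3 and 0.796 for Matn4-/- replicate 1, against 0.83 to 0.837 for the others.

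Of the FoxO factors, Foxo3 was read well above background, by 1 of its 3 probes. That probe read 246.0, 295.1 and 219.8 on wt replicates 1 to 3 and 357.3, 325.5 and 216.8 on Matn4-/- replicates 1 to 3. Matn4-/- replicates 1 and 2 lay above all wt arrays and replicate 3 below them, so the groups overlapped. The mean was 253.6 ± 38.2 for wt and 299.9 ± 73.7 for Matn4-/- arrays (SD over 3 arrays in each group). The log2 difference, Matn4-/- minus wt, was 0.22 with a 95% interval from -0.20 to 0.64 (limma, adjusted p = 0.998). In RNA of sorted cells, fewer cells carrying a transcript and less of it in each cell cannot be told apart.

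The value for Foxo3 turned on single Matn4-/- arrays, replicates 3 and 1. Without replicate 3 the log2 difference was 0.44 ± 0.13 (SE) and still did not pass (limma adjusted p = 0.501). Without replicate 1 it was 0.078, and with any other array left out it lay between 0.122 and 0.335.

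The remaining FoxO probes were not above background on any array. The other Foxo3 probes lay between 100.2 and 122.3, the pair of Foxo1 probes between 100.9 and 119.0, and the Foxo4 probe between 111.3 and 126.7. Foxo4 read 116.6, 112.3 and 111.3 in wt and 126.7, 118.4 and 121.0 in Matn4-/- cells. The third Foxo3 probe read 100.8, 100.2 and 105.7 in wt and 112.9, 107.9 and 116.3 in Matn4-/- cells. In these 2 probes the Matn4-/- arrays lay above the wt arrays, which happened in either direction in 9.56% of the probes below the filter on intensity. Since neither group exceeded the Y-linked probes, no fold change is given, and these arrays bear on neither the presence nor the absence of Foxo1 and Foxo4 transcripts.

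**Figure D1:**
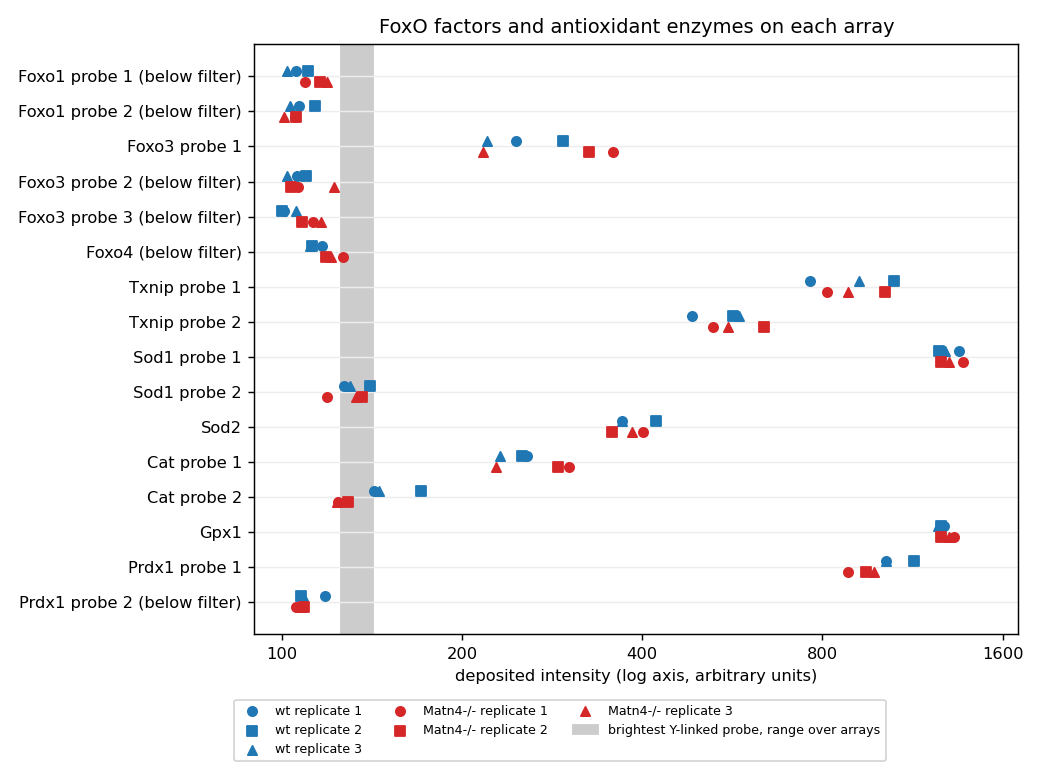
Deposited intensity (log axis) of the 16 probes on each of the 6 arrays, wt in blue and Matn4-/- in red, with replicates 1 to 3 as circles, squares and triangles. Probes of a gene are numbered from the brightest, the grey band is the range of the brightest Y-linked probe (125.8 to 142.2), and 6 probes, all but 1 of them FoxO probes, lay below the filter and on or left of that band.

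Txnip varied more between arrays than between genotypes. Its first probe read 763.9, 1055.6 and 922.8 in wt and 815.3, 1018.7 and 884.6 in Matn4-/- cells. The wt range enclosed all Matn4-/- arrays. The log2 difference was -0.006, with an interval from -0.30 to 0.29 (limma adjusted p = 0.999), which as a fold is 0.81 to 1.22. The second probe read 484.3, 567.3 and 580.1 in wt and 525.2, 638.7 and 556.6 in Matn4-/- cells (log2 difference 0.076, limma adjusted p = 0.999). Both probes were lowest on wt replicate 1 and next lowest on Matn4-/- replicate 1. The SD of log2 intensity of the first probe over the 6 arrays was 0.18, and 80.3% of the 468 probes of similar brightness (mean within 0.5 on the log2 scale) varied less.

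Neither superoxide dismutase differed between the genotypes by more than the spread of the arrays. Sod1 read 1352.2, 1253.4 and 1280.9 in wt and 1373.3, 1260.8 and 1301.2 in Matn4-/- cells by its bright probe. The groups overlapped, and the log2 difference of 0.018 had an interval from -0.15 to 0.18 (limma adjusted p = 0.999), a fold of 0.90 to 1.14. Its second probe lay near background, above it on 1 of 3 wt arrays and 2 of 3 Matn4-/- arrays (119.2 to 140.2; log2 difference -0.034, limma adjusted p = 0.999). Sod2, the mitochondrial enzyme, read 369.6, 422.6 and 369.7 in wt and 401.6, 356.6 and 384.3 in Matn4-/- cells. Here too the groups overlapped, with a log2 difference of -0.023 and a fold interval of 0.86 to 1.13 (limma adjusted p = 0.999).

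Gpx1 was the steadiest member. It read 1277.2, 1261.5 and 1247.7 in wt and 1326.7, 1260.9 and 1301.4 in Matn4-/- cells. Its SD over all 6 arrays was 0.033 on the log2 scale, smaller than in all but 1.1% of the 23118 probes above the filter and all but 0.7% of the 271 of similar brightness. The log2 difference was 0.038 with an interval from -0.11 to 0.19 (limma adjusted p = 0.999), so a change of the mean beyond a fold of 0.92 to 1.14 lay outside the interval. In limma the variance of each probe is drawn toward that of all probes, which widens the interval of a probe as steady as Gpx1.

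Prdx1 lay lower on all 3 Matn4-/- arrays, by a small amount that did not pass the test. Its bright probe read 1023.2, 1138.7 and 1023.0 in wt and 881.7, 947.8 and 977.7 in Matn4-/- cells. The groups did not overlap, and the highest Matn4-/- array stood just under the lowest wt array. The means were 1062 ± 66.7 and 935.7 ± 49.2 (SD, n = 3 each). The log2 difference was -0.18 ± 0.08 (SE), with an interval from -0.36 to -0.000479 and a limma adjusted p of 0.916. The second Prdx1 probe was not above background on any array (105.7 to 118.1).

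Catalase was read by 2 probes that went opposite ways. The brighter probe read 256.9, 252.1 and 231.5 in wt and 301.7, 289.1 and 228.3 in Matn4-/- cells. Matn4-/- replicates 1 and 2 lay above all wt arrays and replicate 3 below them, the order also seen for Foxo3. The log2 difference was 0.14 (interval -0.12 to 0.39, limma adjusted p = 0.998), and 0.26 without Matn4-/- replicate 3 (adjusted p = 0.548). It was 0.059 without Matn4-/- replicate 1 and lay between 0.09 and 0.17 with any other array left out.

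The dimmer Cat probe read 142.8, 171.0 and 145.4 in wt and 123.9, 128.8 and 123.8 in Matn4-/- cells. It was above background on all 3 wt arrays and on none of the Matn4-/- arrays, and the groups did not overlap. The measured means were 153.1 ± 15.6 and 125.5 ± 2.88 (SD, n = 3 each), and taking the Matn4-/- arrays at their brightest Y-linked probe the wt mean exceeded theirs at least 1.14-fold. The fitted log2 difference was -0.28 ± 0.09 (SE), with an interval from -0.48 to -0.085 and a limma adjusted p of 0.735. This was the lowest adjusted p of the 10 probes tested. The mean of both Cat probes gave a log2 difference of -0.07, opposite in sign to the brighter probe alone.

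Over the 10 probes above the filter, 5 were higher and 5 lower in Matn4-/- cells, with a median log2 difference of 0.01. Over all 23118 such probes the median was -0.009 and 46.1% were higher. None of the 10 passed a limma adjusted p of 0.05, a threshold that 0.0476% of all probes above the filter passed, 0.00433% as higher and 0.0433% as lower. At an unadjusted limma p of 0.05 stood 2 of the 10, Prdx1 and the dimmer Cat probe, both lower, where 5.45% of all probes stood at that level, 1.68% higher and 3.76% lower. The groups did not overlap in the same 2 probes, and in 10.4% of all probes, 4.04% higher and 6.37% lower. Without Matn4-/- replicate 3, 4 of the 10 (Foxo3, Prdx1 and both Cat probes) stood at an unadjusted limma p under 0.05, against 7.07% of all probes, and again none passed the adjusted threshold, against 0.0303%. With any other array left out, 1 of the 10 stood at an unadjusted limma p under 0.05, the dimmer Cat probe. The unadjusted limma p of Prdx1 then lay between 0.0618 and 0.179. The share of all probes at that level was not computed for those fits, so this count has no background to be read against. The median size of the difference, regardless of sign, was 0.057 for the 10 probes and 0.063 for all.

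**Figure D2:**
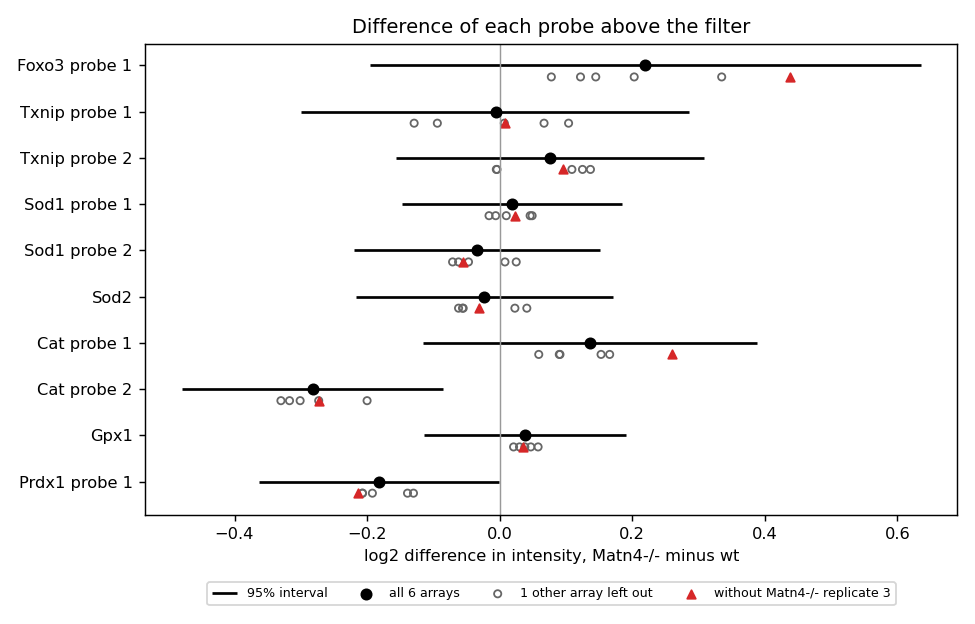
Log2 difference in intensity, Matn4-/- minus wt, of the 10 probes above the filter, with the 95% interval of the limma fit (line) and the value with 1 array left out (symbols beneath). The intervals of 8 probes cross 0, and those of Prdx1 and of the second Cat probe lie below it. Foxo3 and the first Cat probe move to 0.44 and 0.26 without Matn4-/- replicate 3, and to 0.078 and 0.059 without Matn4-/- replicate 1.

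The members differed in how they varied over the arrays. Foxo3 and the brighter Cat probe were both highest on Matn4-/- replicate 1, followed by Matn4-/- replicate 2, and both lowest on Matn4-/- replicate 3 with wt replicate 3 next. The SD over 6 arrays was 0.303 for Foxo3, larger than in 97.3% of probes above the filter, and 0.164 for that Cat probe. Prdx1 had an SD of 0.124 and Sod2 of 0.09, against a median of 0.108 over all probes above the filter. Among probes of similar brightness, 91.9% varied less than Foxo3 and 54.6% less than that Cat probe. For Prdx1 that share was 53.9% and for Sod2 10.7%.

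For the 3 members that varied most by their brightest probe, the genes with the nearest profile were sought among 17119 probes, or 17118 where the member has a further probe above the filter. The measure was the root mean square distance between log2 profiles over the 6 arrays, each centred on its own mean. For Foxo3 these were Smim26 (distance 0.066) and Gstt3 (0.099), a glutathione S-transferase gene. Gstt3 read 169.7, 210.4 and 181.6 in wt and 259.7, 225.9 and 173.0 in Matn4-/- cells. For Txnip they were Invs (0.04), which was above background on 2 of 6 arrays, and E2f6 (0.041), which encodes a transcriptional repressor. For Cat they were Birc5 (0.029), which encodes survivin, and Stat5a (0.033), a transcription factor of cytokine signalling. With 6 arrays and this many probes such neighbours describe these arrays alone.

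**Figure D3:**
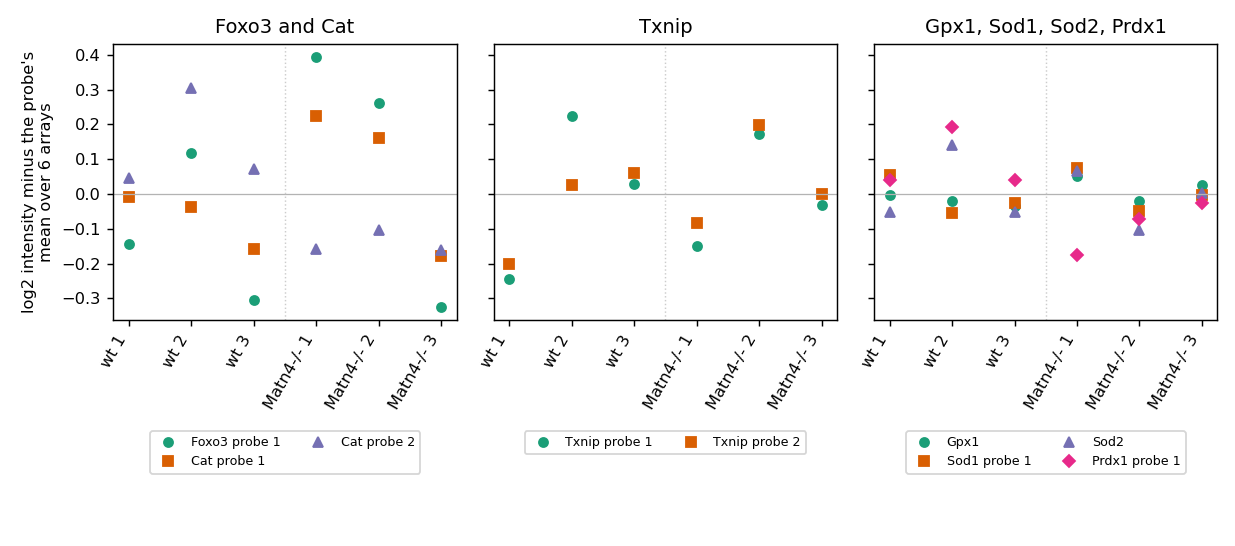
Log2 intensity of 9 member probes on each array, minus the mean of the probe over the 6 arrays; wt arrays left of the dotted line, Matn4-/- arrays right of it. Foxo3 and the first Cat probe share their high and low arrays, the second Cat probe and Prdx1 are lower on the Matn4-/- arrays, and Gpx1 and Sod1 stay within 0.1 of their means.

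The other genes of these pathways were taken from 7 lists, each gene by its brightest probe above the filter. None of their members passed the threshold, which 0.0548% of 12764 genes passed, and at an unadjusted limma p of 0.05 stood 6.04% of all genes. The median log2 difference of all genes was -0.01 and 46.7% were higher. The groups did not overlap in 1341 of the 12764 genes. They did not overlap in 4 of 42 FoxO regulators, 4 of 40 FoxO targets and 2 of 22 genes of the thioredoxin system. The same held for 3 of 29 glutathione and NADPH genes, 1 of 12 of metal handling, 0 of 23 of the NRF2 pathway and 0 of 8 sources of reactive oxygen.

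Of 42 measured regulators of FoxO factors, 16 were higher and 26 lower, with a median of -0.04, and 5 stood at an unadjusted p under 0.05. Pik3r1, the regulatory subunit of phosphoinositide 3-kinase, which acts upstream of AKT, read 806.1, 785.5 and 815.6 in wt and 1086.2, 951.5 and 915.7 in Matn4-/- cells. All Matn4-/- arrays lay above the wt arrays (log2 difference 0.29, limma adjusted p = 0.651), and its other probes stood at 0.26 and -0.03. Prmt1, an arginine methyltransferase that modifies FOXO1, read 424.7, 416.9 and 444.8 in wt and 495.5, 512.9 and 508.7 in Matn4-/- cells, again without overlap (log2 difference 0.24, limma adjusted p = 0.651; other probe 0.20). Pik3cg, a catalytic subunit of the same kinase family, had a log2 difference of -0.50 (adjusted p = 0.736; other probe -0.07). Usp7, a deubiquitinase, had 0.29 (adjusted p = 0.866), with other probes at -0.27 and 0.16.

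Of 40 measured FoxO target genes, 25 were higher and 15 lower, with a median of 0.02, and 3 stood at an unadjusted p under 0.05. The first was Cxcr4, the receptor for CXCL12, with a log2 difference of -0.83 (limma adjusted p = 0.327). Bcl6, a transcriptional repressor, and Atm, the kinase of the DNA damage response, had -0.24 and -0.21 (adjusted p = 0.806 and 0.853). Both were above background on 1 of 3 wt arrays and on no Matn4-/- array, and the other Atm probes stood at 0.07 and -0.02. Bcl2l11, which encodes the death factor BIM, had 0.33 (adjusted p = 0.932; other probe 0.22). Among the targets tied to the cell cycle, Cdkn1a had 0.12 (limma adjusted p = 0.983). Cdkn1b had 0.07, Cdkn1c 0.09, Cdkn2d 0.08, Ccng1 -0.06, Ccng2 -0.03, Ccnd1 -0.04, Ccnd2 0.07 and Rbl2 -0.04 (limma adjusted p = 0.999 each).

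Of 22 measured genes of the thioredoxin, peroxiredoxin and glutaredoxin system, 9 were higher and 13 lower, with a median of -0.03. The largest difference was that of Glrx, glutaredoxin 1, which reduces mixed disulfides of proteins with glutathione. It read 546.5, 497.8 and 488.9 in wt and 326.7, 246.5 and 354.5 in Matn4-/- cells. The groups were well apart (511.1 ± 31.0 against 309.2 ± 56.1, SD, n = 3 each). The log2 difference was -0.74 ± 0.13 (SE), which did not pass over all probes (limma adjusted p = 0.241), and the second Glrx probe stood at -0.23. Glrx was the 1 gene of the list at an unadjusted p under 0.05. Txndc5, a disulfide isomerase, Txnl4a, a splicing factor, and Txnl1, a thioredoxin-like protein, had log2 differences of -0.16, -0.20 and 0.17 (adjusted p = 0.957, 0.974 and 0.986). Txnl1 was above background on 2 of 3 arrays in each group. The other Txnl4a probes stood at 0.04, -0.10 and 0.09, and its value was -0.12 without Matn4-/- replicate 3. Thioredoxin itself (Txn1, 0.05), thioredoxin reductase (Txnrd1, -0.12), Prdx2 (0.00), Prdx3 (-0.09) and Prdx4 (-0.01) each had an adjusted p of 0.999.

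Of 29 measured genes of glutathione metabolism and NADPH supply, 15 were higher and 14 lower, with a median of 0.00. Mthfd2, a mitochondrial folate enzyme that yields NADH or NADPH, read 173.4, 172.1 and 196.9 in wt and 233.4, 256.6 and 255.1 in Matn4-/- cells (log2 difference 0.46, limma adjusted p = 0.262), without overlap, while its other probe stood at 0.03. Gstz1, a glutathione transferase of tyrosine breakdown, had -0.34 (adjusted p = 0.651). Pgd, of the pentose phosphate pathway, had -0.19 (adjusted p = 0.957) and -0.30 without Matn4-/- replicate 3. Gstk1 had 0.38 (adjusted p = 0.991), with Matn4-/- replicate 2 at 622.0 and the other 5 arrays between 276.7 and 316.9. The other Gstk1 probe stood at 0.19.

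The lists of metal and haem handling, of the NRF2 pathway and of sources of reactive oxygen held no gene at an unadjusted limma p under 0.05. Of 12 genes of superoxide and metal handling 5 were higher and 7 lower, with Blvra, biliverdin reductase, at -0.23, Mt1, a metallothionein, at 0.39, Park7 at -0.12 and Ccs, the copper chaperone of Sod1, at -0.18 (adjusted p = 0.916, 0.957, 0.992 and 0.998). Without Matn4-/- replicate 3 Blvra stood at -0.13, Mt1 at 0.61 and Ccs at -0.04. Of 23 NRF2 pathway genes 11 were higher and 12 lower, between -0.12 and 0.23. Keap1, which targets NRF2 for destruction, had 0.23, Srxn1, which repairs oxidised peroxiredoxins, 0.22, Bach1, a repressor of NRF2 targets, 0.11 and Akr1a1 0.10 (adjusted p = 0.957, 0.988, 0.998 and 0.998). Bach1 was above background on 1 of 3 wt arrays and 2 of 3 Matn4-/- arrays. The other Keap1 probes stood at -0.03, -0.04 and -0.05, and the probe at 0.23 stood at 0.37 without Matn4-/- replicate 3. The other probes of Srxn1 and Akr1a1 stood at 0.05 and 0.13. Of 8 measured sources of reactive oxygen 5 were higher and 3 lower. Noxo1, an organiser of NADPH oxidase, had -0.77 (adjusted p = 0.974), with wt replicate 1 at 672.7 and the other 5 arrays between 112.4 and 265.0. It stood at -0.45 without Matn4-/- replicate 3, and its other probe at 0.05. Duox2 was above background on no array, and Noxa1 on 2 of 3 wt arrays and no Matn4-/- array. Mpo, the peroxidase of neutrophil granules, had 0.14 (adjusted p = 0.999), and -0.18 without Matn4-/- replicate 3. The other Mpo probes stood at 0.34, 0.16 and 0.17 on all 6 arrays.

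**Figure D4:**
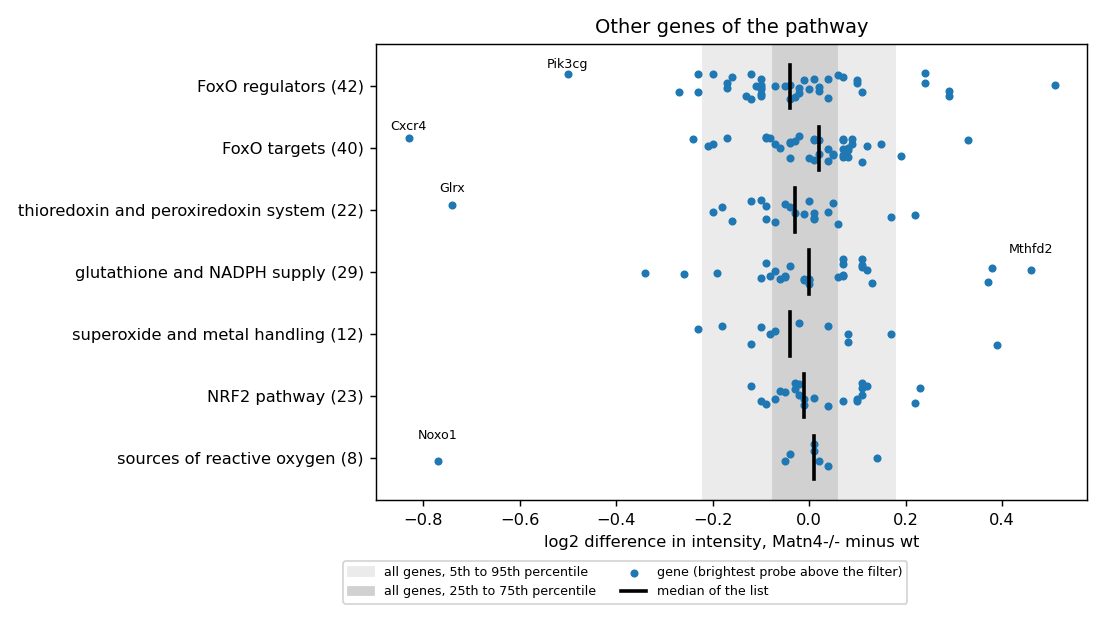
Log2 difference in intensity, Matn4-/- minus wt, of the measured genes of 7 lists (number in brackets), 1 point per gene, with the median of each list as a bar and percentiles of all 12764 genes in grey. The medians lie between -0.04 and 0.02, and Cxcr4, Glrx, Pik3cg and Noxo1 lie farthest left.

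Transcripts of mature blood cells, several of which are rich in peroxide-removing enzymes, were followed by 11 erythroid, 12 neutrophil and 10 mast cell, basophil or eosinophil markers. The summed intensity of the erythroid markers was 2451 to 3508 on the wt arrays and 2720 to 3587 on the Matn4-/- arrays, and that of the neutrophil markers was 2093 to 2892 and 2229 to 3046. The mast cell list ranged from 1436 to 2792 in wt and from 1424 to 3476 in Matn4-/- cells. In each of these 3 lists the groups overlapped, and 5, 4 and 2 of the markers were above background on all 6 arrays. The groups also overlapped in the lists of stem cell, progenitor, platelet or megakaryocyte, B cell, and stromal or endothelial markers. They did not overlap in the 2 remaining lists, and no share over other sums of this kind was computed. Among single probes the groups did not overlap in 10.4% above the filter and in 9.56% below it. The summed intensity of 9 monocyte, macrophage or dendritic cell markers was 1216 to 1253 in wt and 1297 to 1337 in Matn4-/- cells, with 2 markers above background on all arrays and 5 on none. That of 9 T or NK cell markers was 1390 to 1457 in wt and 1288 to 1369 in Matn4-/- cells, with 3 above background on all arrays and 4 on none. No marker whose brightest probe lay above the filter passed the threshold, and markers below the filter were not tested. Their part in the values of Prdx1, Cat and the other members was not tested.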

How the data were processed

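RNA of sorted stem cells (2.5 ng) was amplified and hybridised to Illumina bead arrays, per the labels' protocols. The deposited values are 1 linear intensity per probe and array, with normalization not given in the sources used here and column medians of 118 to 120.4. A second table of non-normalized signals was not used, since its 12 value columns match no sample label. Symbols came from the platform annotation (35784 of 46237 probes) and were updated through Entrez identifiers or accessions with the GRCm38.p6 gene table. Log2 intensities of the brighter 50% of probes (23118, mean above 118.6) entered a model with genotype as the only term (lmFit and eBayes of limma 3.58.1, R 4.3.3), with Benjamini-Hochberg adjustment over these probes and 0.05 as the threshold. Python 3.11.15, pandas 2.3.3 and matplotlib 3.10.9 served for the summaries and figures. The number of arrays limits the precision.

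The fit was tested on simulated data. The members, lists and filter were chosen with earlier results of these data known. By rule, all member probes and up to 4 genes a list, those with the smallest p, are named. Cdkn1a, Cdkn1b, Cdkn1c, Cdkn2d, Ccng1, Ccng2, Ccnd1, Ccnd2, Rbl2, Txn1, Txnrd1, Prdx2, Prdx3 and Prdx4 were added after their values were seen. Alternatives covered normalization, background, filter, offset, variance model, probe choice, the replicate number and each array left out. The design text names no block, so none was used. Deviations of same-numbered wt and Matn4-/- arrays correlated at 0.01, 0.044 and 0.05, and those of other pairs at -0.067 to 0.02. These values are all small and do not decide whether same-numbered arrays were paired.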

Additional observations from a re-analysis of the deposited data

How the results depend on the processing

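None of the 10 probes passed under any of 17 alternatives, where the lowest adjusted p was 0.501. Of 155 values of single probes under alternatives, 13 had the opposite sign. All were of Txnip, Sod1 or Sod2 probes, whose differences in the main fit lay between -0.034 and 0.076. The 155 include values from the replicate block, both changes of the filter, the intensity trend and 1 probe per gene. Those alternatives cannot change the log2 difference of a probe, so its sign there was fixed in advance. With an array left out, the log2 difference of Txnip ran from -0.129 to 0.104 (first probe) and from -0.005 to 0.137 (second probe), that of Sod1 from -0.016 to 0.049 and from -0.071 to 0.025, and that of Sod2 from -0.062 to 0.041. With quantile normalization the first Txnip probe stood at 0.011. Foxo3, both Cat probes, Gpx1 and Prdx1 kept their direction in every alternative that gave a value for the probe and could change it. The mean over both Cat probes was -0.07. The dimmer Cat probe moved from -0.28 to -0.45 with normexp background correction. The unadjusted limma p of Prdx1 was 0.0673 with the replicate block, 0.15 with normexp and 0.0658 with an intensity trend. The median of the members stayed between -0.03 and 0.04 with an array left out.

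The number of all probes past the threshold was 11 and ran from 3 to 9 with an array left out (4 without wt replicate 1, 5 without wt replicate 2 or 3, 3 without Matn4-/- replicate 1, and 7 without Matn4-/- replicate 3). It was 17 with an intensity trend and 7 with 1 probe per gene. The replicate number as a block gave 13 probes, with no member among them. Whether arrays of the same number were paired is not known. In this balanced design the block cannot change a log2 difference, so Prdx1 stayed at -0.18 and Foxo3 at 0.22. The SE of Foxo3 went from 0.183 to 0.115 and its unadjusted limma p from 0.26 to 0.0883, while that of Prdx1 went from 0.0495 to 0.0673. The non-normalized table could not be used as a starting point because its columns match no sample. Background limited the signal of Foxo1, Foxo4 and the dimmer Cat and Sod1 probes.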
